A study of Sus scrofa with 44 samples.

Results

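The genes described here are the 4 myogenic regulatory factors MYF5, MYOD1, MYOG and MYF6 and the paired box genes PAX3 and PAX7. They were taken by gene symbol of the Ensembl pig gene ID, and all 6 were found among the 22427 genes of the expression tables. PAX3 and PAX7 encode transcription factors that mark the progenitor cells of skeletal muscle, and PAX7 also marks the satellite cells that remain with the fibres. MYF5, MYOD1, MYOG and MYF6 encode basic helix-loop-helix proteins that pair with E proteins on DNA: MYF5 and MYOD1 commit progenitors to the muscle lineage, MYOG drives myoblasts to differentiate, and MYF6 is the member that mature fibres keep. N6-methyladenosine (m6A) is a methyl mark on adenosines of RNA, laid down mostly at the sequence called DRACH and often found near stop codons.

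The study followed this mark through porcine muscle development before birth. Longissimus dorsi, a back muscle, was sampled at 6 stages named E33, E40, E50, E60, E70 and E95, where the number is the day post coitus. Each stage had 3 input libraries of ribosomal RNA-depleted RNA and 3 m6A immunoprecipitates. Breed, genotype, treatment and pooling are not stated in the labels. Peak lists of PK15, a porcine kidney cell line, from polyA RNA and from ribosomal RNA-depleted RNA came with them. The labels do not say that the 3 libraries of a stage came from separate animals, so p-values measure only the spread between these libraries, which may be technical.

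Expression was deposited as TPM (reads per transcript length, as a share of the library's total), so the read depth behind a value is unknown. A single gene, ENSSSCG00000032395, held 37.4% to 72.4% of all TPM, depending on the library, which moves every other deposited value. Levels are therefore given as deposited and also scaled by the median ratio over 14215 genes, with size factors from 0.305 to 2.03. From E33 to E95 the median gene fell by 1.02 on the log2 scale in the deposited values, against 0.00 after scaling. In a further pair of libraries, E40 replicate 2 and E50 replicate 3, another gene, ENSSSCG00000032599, took 17.3% and 14.4% of the TPM. Muscle markers checked the tissue: the summed scaled TPM of the 6 matched of 8 (ACTA1, DES and CKM among them) was 694 to 845 at E33 and 9141 to 14716 at E95. In such bulk tissue, fewer cells of a type and less RNA per cell cannot be told apart.

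The m6A peaks with sequence at the members lay in MYOG, MYOD1 and PAX7, and the stretches shared by the peaks of each site are printed first because they carry the methylation result. DRACH is A, G or T, then A or G, then AC, then A, C or T, and its matches on the gene's strand are in capitals, with overlapping matches run together. Sequence is from the RefSeq Sscrofa11.1 genome, 5′ to 3′ on the gene's strand. The coding part of the MYOG stop codon site (chr9:113783233-113783290, minus strand), the MYOG site in the first coding exon (chr9:113785053-113785232, minus strand) and the MYOD1 site in the first coding exon (chr2:41423620-41423769, minus strand) read:
MYOG stop codon: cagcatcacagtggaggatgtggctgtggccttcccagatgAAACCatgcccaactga
MYOG first exon: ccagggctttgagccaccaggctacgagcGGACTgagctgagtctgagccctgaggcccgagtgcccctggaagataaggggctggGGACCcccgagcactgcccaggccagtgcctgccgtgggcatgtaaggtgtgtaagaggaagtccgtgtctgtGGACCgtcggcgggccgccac
MYOD1 first exon: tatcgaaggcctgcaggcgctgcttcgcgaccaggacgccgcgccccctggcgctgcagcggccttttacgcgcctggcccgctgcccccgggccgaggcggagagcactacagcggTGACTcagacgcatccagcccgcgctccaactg

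Outside the coding sequence, a window of 30 bases around a match is shown for each site: upstream of the MYOD1 start codon (chr2:41424334-41424363, minus strand), and at the proximal (chr6:77266192-77266221, plus strand) and the distal (chr6:77266581-77266610, plus strand) site of the last exon of PAX7.
MYOD1 upstream: gggtgtgcattcAGACCccaagtactttgc
PAX7 proximal: cagcctcctttgGAACTtttcaccacctcc
PAX7 distal: caagcctgtcctGGACCaTGACCaaggagg

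The progenitor gene PAX3 (ENSSSCG00000028418, chromosome 15, 124093803 to 124193041, minus strand) was nearly confined to the youngest stage. Its deposited level was 0.692, 1.47 and 0.853 TPM in the 3 libraries of E33. The other 15 libraries held between 0 and 0.168 TPM, so the E33 libraries did not overlap with any of them. Scaled, the mean was 0.582 ± 0.139 TPM (SD, n = 3) at E33 and 0.0364 ± 0.0316 TPM (SD, n = 3) at E40. The remaining 4 stages had scaled means from 0.0356 to 0.0978 TPM, and every neighbouring pair of the 5 later stages in the order of means overlapped.

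PAX3 was below the mean of 1 TPM that a gene needed to be tested. With that filter removed, which was an alternative setting, its fall from E33 to E40 was 0.61 on the log2(TPM + 1) scale (limma adjusted p = 4.41e-05), beside 15.8% of the 19628 genes then tested, a scale that understates changes of low genes. Its E95 level was lower than at E33 by the same fit, with a difference of -0.52 (SE 0.067, limma adjusted p = 2.99e-05), beside 36.4% of genes. Markers of some other tissues also fell over these stages, and those of others did not. The summed scaled TPM of the 6 matched of 9 neuron and neural tube markers was 102 to 132 at E33, 19.4 to 25.0 at E40 and 2.39 to 4.65 at E95, with OLIG2 listed at 0 in every library. For the 5 Schwann and neural crest markers the sum was 61.5 to 66.9 at E33, 54.1 to 60.5 at E40 and 60.0 to 117 at E95. The part of these tissues in the PAX3 result was not tested.

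PAX7 (ENSSSCG00000034627, chromosome 6, 77160827 to 77268626, plus strand) formed a hump over gestation in the scaled values. The scaled levels were 13.1, 12.0 and 11.6 TPM at E33, then 18.8, 19.6 and 16.2 TPM at E40. They were 23.9, 22.3 and 26.3 TPM at E50 and 18.5, 21.9 and 24.5 TPM at E60. At E70 they were 20.6, 17.6 and 18.4 TPM, and at E95 they were 11.6, 13.0 and 15.8 TPM. Every library from E40 to E70 was thus above every library of E33 and of E95, while E33 and E95 overlapped.

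As deposited, PAX7 stood at 15.7, 24.4 and 22.2 TPM at E33, 26.2, 9.25 and 25.3 TPM at E40, and 23.1, 28.0 and 8.02 TPM at E50. The low libraries of E40 and E50 were E40 replicate 2 and E50 replicate 3, which also held the lowest deposited level of their stage for MYF5, MYOD1, MYOG and MYF6. Later stages had 22.0, 28.7 and 32.5 TPM at E60, 20.0, 19.2 and 18.1 TPM at E70, and 7.57, 7.46 and 13.8 TPM at E95. Only the drop at E95 separated a stage from its neighbour in the order of deposited means.

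The determination gene MYF5 (ENSSSCG00000000937, chromosome 5, 100753440 to 100755558, minus strand) had its lowest mean at E95. On both scales its mean declined from E60 to E70 and from E70 to E95. As deposited, its mean was already lower at E40 (56.0 TPM) than at E33 (120 TPM), without overlap, though this step did not pass (limma adjusted p = 0.148). Deposited levels were 79.2, 123 and 156 TPM at E33, 72.3, 31.2 and 64.5 TPM at E40, and 82.8, 59.2 and 26.0 TPM at E50. They were 56.1, 111 and 90.8 TPM at E60, 31.0, 36.7 and 44.3 TPM at E70, and 16.3, 19.7 and 19.3 TPM at E95. The E95 libraries were lower than all other 15, and scaling left E33 and E95 apart: the scaled mean was 69.5 ± 11.12 TPM (SD, n = 3) at E33 and 27.2 ± 6.39 TPM (SD, n = 3) at E95. Between them the scaled means were 53.0 ± 12.4, 72.7 ± 22.1, 66.7 ± 18.8 and 36.8 ± 7.10 TPM (SD, n = 3 each) at E40, E50, E60 and E70, and every neighbouring pair in the order of scaled means overlapped.

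MYOD1 (ENSSSCG00000013375, chromosome 2, 41422522 to 41424236, minus strand), the second determination gene, was among the 2 most abundant members throughout. Deposited, it stood at 180, 223 and 192 TPM at E33, 124, 34.7 and 139 TPM at E40, and 111, 116 and 33.3 TPM at E50. It stood at 122, 178 and 177 TPM at E60, 138, 135 and 124 TPM at E70, and 154, 145 and 142 TPM at E95. In stage order from E33 to E95, the scaled means were 120 ± 25.8, 83.5 ± 8.63, 106 ± 11.5, 124 ± 18.6, 130 ± 9.91 and 217 ± 47.6 TPM (SD, n = 3 each). E95 was the highest stage after scaling, with no overlap with E70, whereas E33 was the highest stage as deposited.

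MYOG (ENSSSCG00000034654, chromosome 9, 113783233 to 113785312, minus strand), the differentiation gene, changed least after scaling. Deposited levels were 149, 254 and 226 TPM at E33, 144, 48.6 and 152 TPM at E40, and 105, 113 and 29.3 TPM at E50. They were 138, 206 and 252 TPM at E60, 141, 144 and 144 TPM at E70, and 78.4, 77.7 and 87.5 TPM at E95. Scaled means ran from 98.4 ± 9.56 TPM at E50 to 154 ± 37.6 TPM at E60 (SD, n = 3 each), a 1.57-fold range. In the order of scaled means, only E70 and E33 were neighbours without overlap.

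MYF6 (ENSSSCG00000026533, chromosome 5, 100762918 to 100764771, minus strand) lies 7359 bases from MYF5 and took the opposite course. Its scaled levels were 11.0, 5.88 and 17.1 TPM at E33, 13.3, 20.7 and 18.5 TPM at E40, and 25.5, 15.9 and 26.9 TPM at E50. They were 29.6, 37.5 and 33.0 TPM at E60, 41.4, 45.6 and 38.6 TPM at E70, and 49.3, 67.0 and 42.5 TPM at E95. Every library of E60, E70 and E95 exceeded every library of E33, E40 and E50. In the deposited values the level was 13.3, 11.9 and 32.5 TPM at E33, 18.7, 9.76 and 28.9 TPM at E40, and 24.6, 20.0 and 8.21 TPM at E50. Deposited levels were 35.3, 49.2 and 43.8 TPM at E60, 40.2, 49.9 and 38.0 TPM at E70, and 32.1, 38.5 and 37.1 TPM at E95. There, E60 and E70 lay above all libraries of the first 3 stages, and E95 overlapped with E33 through a single E33 library.

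**Figure D1:**
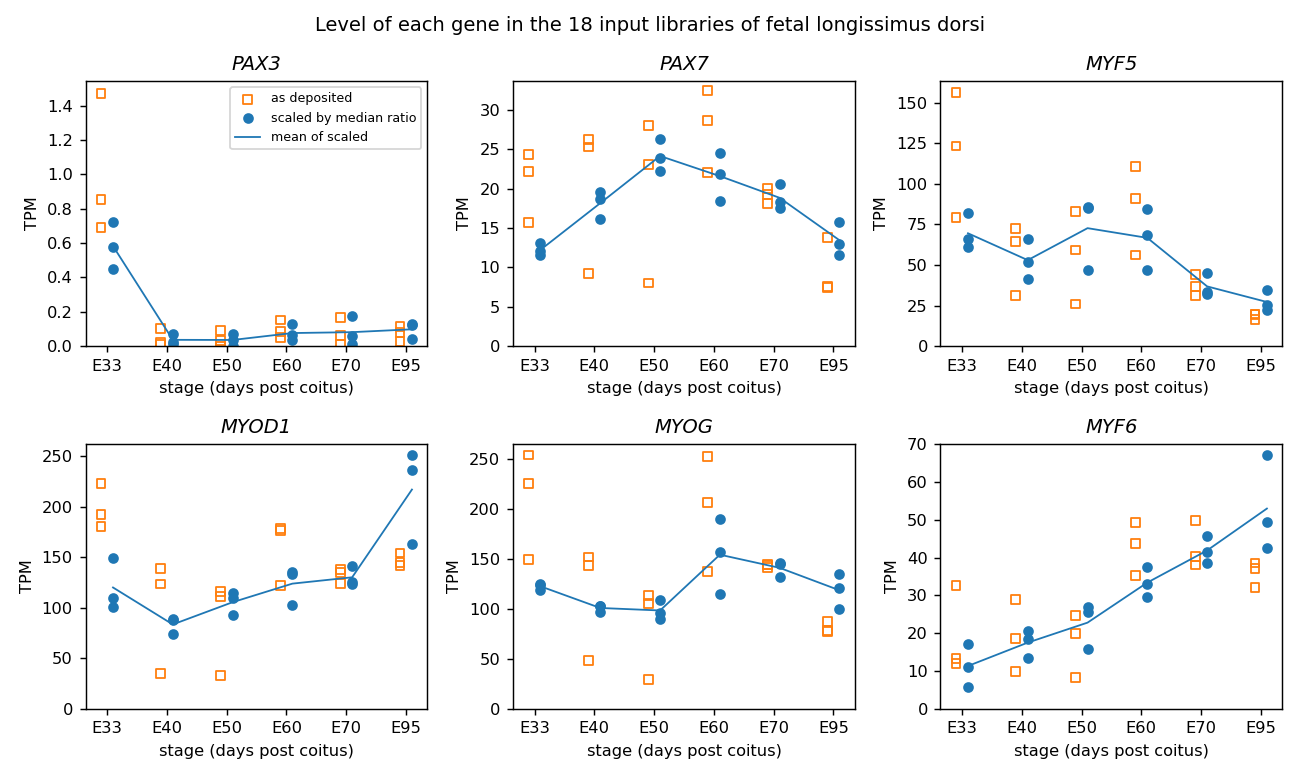
TPM (vertical axis, starting at 0) of each gene in every input library by stage, as deposited (open squares) and scaled by median ratio (filled circles, with a line through the means). PAX3 is highest at E33, where its scaled mean is 0.582 TPM. PAX7 peaks at E50 with a scaled mean of 24.2 TPM, and MYF6 climbs from 11.3 to 52.9 TPM scaled. MYOD1 is highest at E95 in the scaled values, whereas as deposited its mean at E95 is above E70 but below E33.

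Whether a level differed among stages was asked in a model with 1 mean per stage. After scaling, all 5 tested members were called, beside 47.3% of the 13334 genes tested. The F test gave limma adjusted p = 1.22e-04 for PAX7, limma adjusted p = 1.85e-04 for MYF6 and limma adjusted p = 6.64e-04 for MYOD1. MYF5 had limma adjusted p = 0.00287 and MYOG limma adjusted p = 0.0174. Without the pair of libraries high in ENSSSCG00000032599, MYOG had limma adjusted p = 0.0534. In the deposited values 1 member, MYF5, was called (limma adjusted p = 0.00581), beside 20.1% of genes.

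From the first to the last stage, MYF5 was lower at E95 and MYF6 and MYOD1 were higher on the scaled values, while MYOD1 was lower in the deposited ones. These 3 calls among 5 tested members stand beside 46.7% of all genes tested. The scaled E33 and E95 libraries did not overlap for the same 3 members, as for 55.3% of genes, and the deposited ones did not overlap for 4 members (PAX7, MYF5, MYOD1 and MYOG), as for 69.4% of genes. MYF6 rose 4.68-fold in scaled mean TPM, with a fitted log2 change of 2.21, SE 0.30 and limma adjusted p = 2.51e-05. MYF5 was 2.56-fold lower in scaled mean TPM, with a fitted log2 change of -1.34, SE 0.27 and limma adjusted p = 9.74e-04. MYOD1 was 1.81-fold higher, with a fitted log2 change of 0.84, SE 0.18 and limma adjusted p = 0.00161. PAX7 (0.12, SE 0.12, limma adjusted p = 0.462) and MYOG (-0.06, SE 0.15, limma adjusted p = 0.793) did not pass.

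The scaling decided several of these values. As deposited, the log2 change was -2.58 for MYF5 (limma adjusted p = 3.52e-04) and -1.32 for MYOG (limma adjusted p = 0.0401), and these 2 calls stand beside 48.5% of genes. MYF6 at 1.00 (limma adjusted p = 0.0787), PAX7 at -1.07 (limma adjusted p = 0.0614) and MYOD1 at -0.43 (limma adjusted p = 0.474) did not pass. Quantile normalization gave MYOD1 0.51 (limma adjusted p = 0.0159) and MYOG -0.35 (limma adjusted p = 0.0434). Rescaling without the 2 most abundant genes gave MYOD1 0.17 (limma adjusted p = 0.393), MYOG -0.73 (limma adjusted p = 6.10e-04) and PAX7 -0.53 (limma adjusted p = 0.00707). The fall of MYF5 passed under all 4 scalings, and MYF6 was higher at E95 under all 4.

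**Figure D2:**
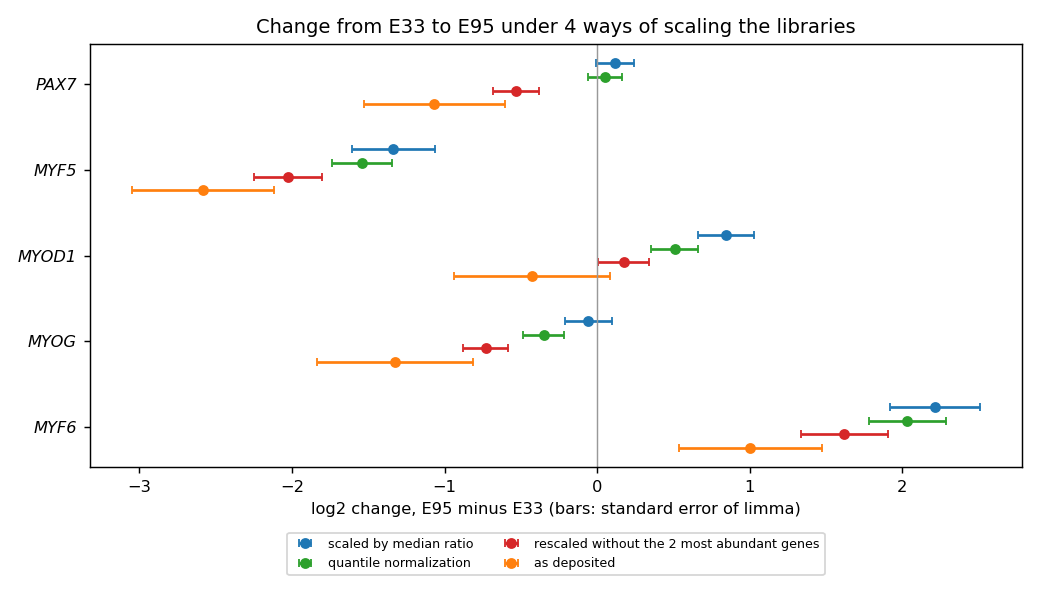
Log2 change from E33 to E95 (horizontal axis, with limma's standard error) of the 5 tested members under 4 scalings of the 18 libraries. MYF5 lies left of 0 and MYF6 right of 0 under each, while MYOD1 runs from 0.84 scaled by median ratio to -0.43 as deposited and PAX7 from 0.12 to -1.07.

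Between consecutive stages, 3 of 25 member and stage pair combinations were called on scaled values and 0 of 25 on deposited ones. PAX7 was 1.49-fold higher in scaled mean TPM at E40 than at E33, with a fitted log2 change of 0.53, SE 0.12 and limma adjusted p = 0.00803, beside 20.9% of genes called; as deposited the change was -0.14. From E70 to E95, beside 13.6% of genes called, PAX7 was 1.40-fold lower, with a fitted log2 change of -0.46, SE 0.12 and limma adjusted p = 0.0220. Over the same step MYOD1 was 1.67-fold higher, with a fitted log2 change of 0.71, SE 0.18 and limma adjusted p = 0.0185. The late PAX7 call was lost without E70 replicate 1 or 3 or E95 replicate 1 or 2 (limma adjusted p from 0.0531 to 0.0974). The late MYOD1 call was lost without E70 replicate 2 or 3 or E95 replicate 1 or 2 (limma adjusted p from 0.0606 to 0.0839), under quantile normalization (0.41, limma adjusted p = 0.106) and when rescaled without the 2 most abundant genes (0.41, limma adjusted p = 0.101). Both late calls were lost when only the libraries of E70 and E95 were fitted (limma adjusted p = 0.0891 for PAX7 and limma adjusted p = 0.0830 for MYOD1). As deposited, the step was -0.97 for PAX7 (limma adjusted p = 0.619) and 0.15 for MYOD1 (limma adjusted p = 0.879). The 3 steps from E40 to E70, where no member was called, had 1.52%, 0.817% and 1.73% of genes called on scaled values. In the deposited values, where no member was called, the 5 steps in order had 4.87%, 0.00750%, 0.0600%, 0.0825% and 0.285% of genes called.

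The 9 other stage pairs were added after the values had been seen. The 6 calls described here are examples from a larger number of calls on scaled values in these pairs, and other combinations were not called. Among calls not described further, MYF6 at E70 against E33 had a log2 change of 1.90 (limma adjusted p = 1.67e-04). MYF5 in the same pair had -0.90 (limma adjusted p = 0.0185). PAX7 was 1.97-fold higher in scaled mean TPM at E50 than at E33 (log2 change 0.93, limma adjusted p = 7.19e-05), beside 25.0% of genes called, although the deposited change was -0.21. It was 1.80-fold lower at E95 than at E50 (log2 change -0.81, limma adjusted p = 1.90e-04), beside 30.4% of genes. MYF6 was 2.95-fold higher at E60 than at E33 (log2 change 1.58, limma adjusted p = 0.00111), beside 25.0% of genes. MYF5 was 2.45-fold lower at E95 than at E60 (log2 change -1.25, limma adjusted p = 0.00382), beside 25.4% of genes. MYOD1 was 2.60-fold higher at E95 than at E40 (log2 change 1.35, limma adjusted p = 4.72e-05), beside 37.9% of genes. MYOG was 1.53-fold higher at E60 than at E40 (log2 change 0.58, limma adjusted p = 0.0348), beside 7.49% of genes. The MYOG call was lost without 5 of the 18 libraries, each left out in turn (3 of E40, and E60 replicates 2 and 3), with limma adjusted p from 0.0632 to 0.148. It was also lost without the pair of libraries high in ENSSSCG00000032599 (limma adjusted p = 0.0691), under quantile normalization (limma adjusted p = 0.0746), when rescaled without the 2 most abundant genes (limma adjusted p = 0.0646) and with a replicate block (limma adjusted p = 0.0595). As deposited, MYF5 at E95 against E60 was the one of these 6 calls that passed (-2.11, limma adjusted p = 0.0161), beside 4.04% of genes. There PAX7 at E95 against E50 was -0.85 (limma adjusted p = 0.613), MYF6 at E60 against E33 was 1.24 (limma adjusted p = 0.164), MYOD1 at E95 against E40 was 0.79 (limma adjusted p = 0.387) and MYOG at E60 against E40 was 0.91 (limma adjusted p = 0.897).

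Ratios of members within a library do not change when all its values are divided by 1 size factor; they were taken on the deposited TPM. MYF6 over MYF5 moved furthest of the 6 ratios compared. It was 0.0966 to 0.208 across the E33 libraries and 1.93 to 1.96 across the E95 libraries. In stage order from E33 to E95, the mean log2 ratio was -2.74 ± 0.57, -1.59 ± 0.40, -1.66 ± 0.092, -0.96 ± 0.26, 0.20 ± 0.37 and 0.96 ± 0.013 (SD, n = 3 each). MYF5 transcripts thus outnumbered those of MYF6 in every library up to E60, and MYF6 outnumbered MYF5 in every library of E95. The change from E33 to E95 was 13.0-fold (exact permutation p = 0.1, two-sided, the smallest that 3 against 3 libraries can give).

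The MYF5 over MYOD1 ratio was 0.440 to 0.814 at E33 and 0.106 to 0.137 at E95, 4.65-fold lower in the mean log2 ratio. MYOG over MYOD1 was 0.829 to 1.18 at E33, stayed between 0.881 and 1.43 from E40 to E70, and was 0.509 to 0.616 at E95. Every E95 library was thus below every other library in MYOG over MYOD1. MYF6 over MYOD1 rose 2.79-fold from E33 to E95 in the mean log2 ratio, and PAX7 over MYF5 was 2.82-fold higher. For these 4 ratios the E33 and E95 libraries did not overlap, and each had an exact permutation p = 0.1. No background of ratios between other genes was taken. PAX7 over MYOD1 was 0.0873 to 0.115 at E33, 0.208 to 0.241 at E50 and 0.0491 to 0.0970 at E95; its E33 and E95 libraries overlapped (exact permutation p = 0.2).

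**Figure D3:**
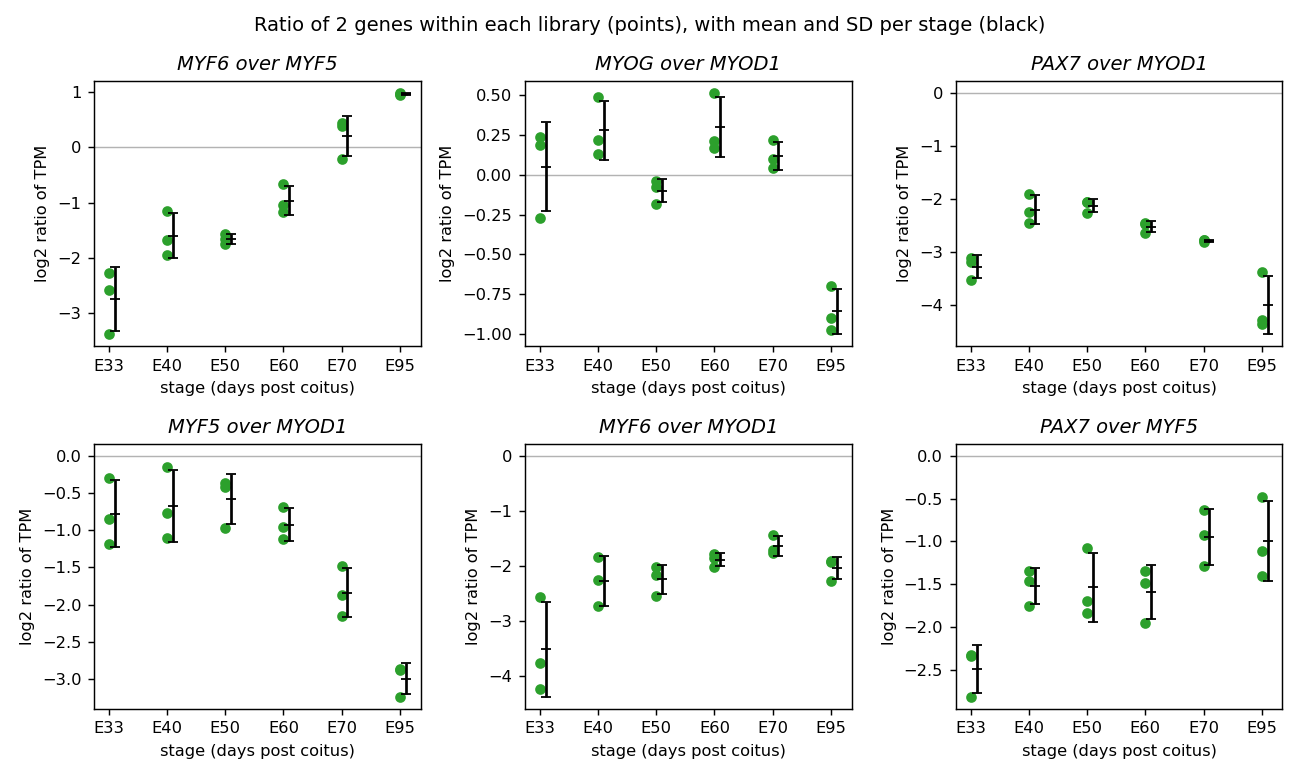
Log2 ratio of the TPM of 2 genes in the same library (vertical axis) by stage, with the mean and SD of the 3 libraries of each stage in black. MYF6 over MYF5 goes from -2.74 at E33 to 0.96 at E95, and MYOG over MYOD1 is lowest at E95, at -0.86.

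As shares of the summed TPM of the 4 regulatory factors, MYF5 went from 21.6% ± 3.71 (SD, n = 3) at E33 to 6.53% ± 0.638 (SD, n = 3) at E95. MYF6 went from 3.48% ± 1.73 (SD, n = 3) to 12.7% ± 1.19 (SD, n = 3). MYOD1 held 36.9% ± 5.54 (SD, n = 3) at E33 and 52.0% ± 2.63 (SD, n = 3) at E95. MYOG held 38.0% ± 3.14 (SD, n = 3) at E33, 40.3% ± 0.853 (SD, n = 3) at E70 and 28.7% ± 1.62 (SD, n = 3) at E95. None of the 4 genes overlapped between E33 and E95 in these shares, which sum to a fixed total and so are not independent. In levels of single genes, 55.3% of genes scaled and 69.4% as deposited did not overlap between these stages. No such background was taken for shares.

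**Figure D4:**
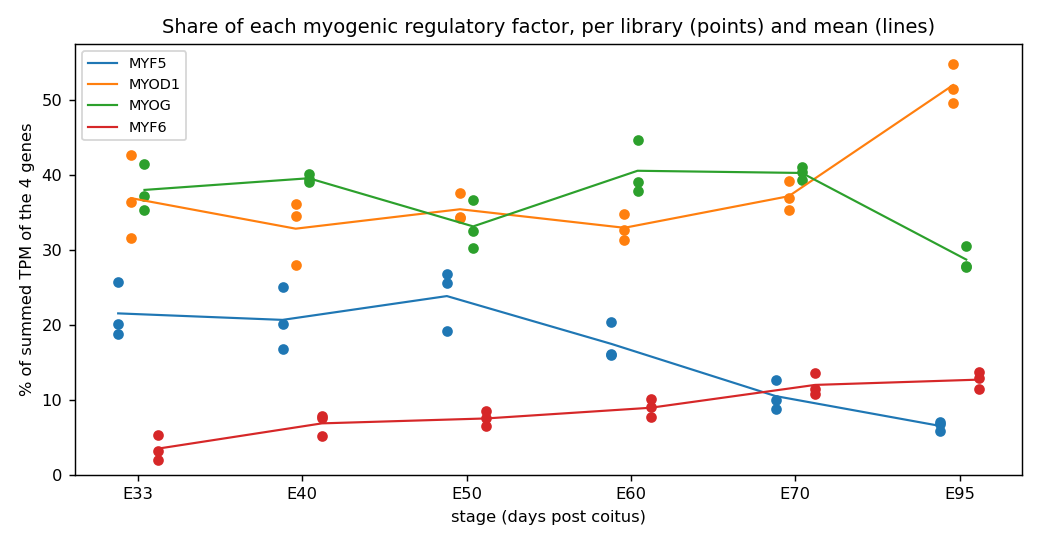
Share of each myogenic regulatory factor in the summed TPM of the 4 genes (vertical axis, in percent, starting at 0) in every library, with lines through the stage means. MYF5 and MYF6 exchange ranks between E60 and E95, and at E95 MYOD1 holds 49.7% to 54.9% and MYOG 27.7% to 30.6%.

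The genes with the most similar course were sought over the 18 libraries on the scaled log2 values, among 10753 tested genes with a symbol. The libraries share stages and scaling, so these correlations are descriptions. PAX7 ran closest to FGFR4 (Pearson r = 0.954), a fibroblast growth factor receptor, followed by TMEM255A (0.918) and HTRA3 (0.915). The scaled mean of FGFR4 was 34.4 TPM at E33, 84.2 TPM at E50 and 42.5 TPM at E95. MYF5 ran closest to MAST2 (0.935), SEPTIN5 (0.930) and TMEM44 (0.917). MYOD1 ran closest to PRMT1 (0.932), an arginine methyltransferase, IL10RA (0.931) and LRRC32 (0.930). For MYOG the closest were TUBB6 (0.900), a beta-tubulin, TEAD4 (0.820), a transcription factor of the Hippo pathway, and ANKS1A (0.818). MYF6 ran closest to CAVIN1 (0.967), a caveolar coat protein, MMP23B (0.956) and CD34 (0.952). In the deposited values r for these 15 pairs ran from 0.727 for IL10RA to 0.981 for TUBB6.

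Among the members themselves, scaled correlations over the 18 libraries ran from -0.50 for MYF5 with MYOD1 to 0.61 for MYOD1 with MYF6. Scaling set many of these: MYOD1 with MYOG had r = 0.426 scaled and 0.850 as deposited, and PAX7 with MYOG 0.016 and 0.813.

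The partners of the myogenic factors, among them E proteins, MEF2 proteins and EYA proteins, changed in both directions from E33 to E95 on scaled values. Of 11 tested, 4 were higher and 2 lower, with a median log2 change of 0.11 against 0.00 over all genes. Over all genes tested, 23.7% were called higher and 23.0% lower on scaled values, 46.7% in all, against 2.64% higher and 45.8% lower as deposited, 48.5% in all. TCF3, which encodes the E proteins E12 and E47, stood at 25.8 ± 0.991 TPM scaled (SD, n = 3) at E33 and was lower at E95, with a fitted log2 difference of -1.17, SE 0.11 and limma adjusted p = 5.02e-07. EYA1, a transcriptional cofactor, changed by -0.83 (limma adjusted p = 3.86e-05). MEF2D rose by 1.06 (limma adjusted p = 2.07e-06) and MEF2C by 1.04 (limma adjusted p = 1.50e-05), both MADS-box factors, but these were -0.14 and -0.21 in the deposited values. As deposited, 0 of the 11 were called higher and 3 lower, and the median was -1.10 against -1.02 over all genes.

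The inhibitors of basic helix-loop-helix factors were lower where they were called. Of 12 listed, 11 had an ID and were tested, and 6 were lower and 0 higher at E95. The median log2 change of the 11 was -1.06, and 23.0% of all genes were lower. In the deposited values 8 were lower and 0 higher, where 45.8% of all genes were lower. ID2 changed by -1.70 (SE 0.28, limma adjusted p = 1.49e-04) and ID4 by -1.41 (SE 0.33, limma adjusted p = 0.00297). The ID proteins bind E proteins and keep them from DNA.

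Genes of muscle progenitors and satellite cells moved apart. Of 16 listed, 14 were tested, and 6 were higher and 4 lower at E95. Their median log2 change was 0.31, and 46.7% of all genes were called. The largest rises were CXCR4, a chemokine receptor, at 2.41 (limma adjusted p = 6.83e-06) and DLK1, a Notch pathway ligand-like protein, at 2.31 (limma adjusted p = 2.46e-08). The largest falls were NCAM1, a neural and muscle cell adhesion molecule, at -1.60 (limma adjusted p = 1.91e-08) and EPHA7, an ephrin receptor, at -1.57 (limma adjusted p = 2.34e-07). As deposited, 1 was higher and 6 lower, where 2.64% and 45.8% of all genes were, and the median was -0.78. NCAM1 is also expressed in nerve, whose markers fell over the same stages; their part in this value was not tested.

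Among genes with promoters or enhancers known to be bound by the myogenic factors, 16 of 20 listed were tested, and 8 were higher and 6 lower at E95. The median log2 change was 0.67, and 46.7% of all genes were called. CKM, the muscle creatine kinase, rose by 7.16 (SE 0.20, limma adjusted p = 8.53e-12), and JSRP1, a protein of the junctional sarcoplasmic reticulum, by 4.54 (SE 0.30, limma adjusted p = 2.10e-08). MYL4, the embryonic and atrial myosin light chain, changed by -2.14 (SE 0.34, limma adjusted p = 1.12e-04) and MYBPH, a myosin-binding protein, by -1.94 (SE 0.24, limma adjusted p = 9.80e-06). In the deposited values 6 were higher and 6 lower, where 2.64% and 45.8% of all genes were, and the median was -0.59.

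The m6A peaks were read from 1 deposited list per stage, with no replicate lists, so differences between stages have no replicate check. A peak's fold enrichment and p-value are the authors' own. MYOG, MYOD1 and PAX7 carried a peak in at least 1 stage list, which is 3 of the 6 members. Among genes averaging 1 TPM or more, 45.8% had a peak in at least 1 stage list, and among those averaging 10 TPM or more, 65.0%. Over 36 member and stage combinations, 13 held a peak. PAX3, MYF5 and MYF6 had none in any list, and none of the 6 had a peak in either PK15 list, where 37.7% (polyA) and 23.7% (ribosomal RNA-depleted) of all genes had one. No PK15 expression values were available, so a missing peak there cannot be told from a missing transcript.

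MYOG was the member with a peak in all 6 stage lists, as were 34.2% of genes averaging 10 TPM or more and 18.3% of those averaging 1 TPM or more. Each list held 2 MYOG peaks. In stage order, the site at the stop codon had fold enrichments of 2.95, 3.01, 4.04, 2.89, 3.55 and 3.77. The site in the first coding exon had 2.86, 2.92, 4.97, 2.55, 3.68 and 4.38. Only the E50 peak of the exon site exceeded its list's median fold, so MYOG peaks were weak to middling within their lists, at percentiles 15.0 to 51.3. The stop codon peaks ran from inside the last coding exon past the stop codon, and 58 to 88 of their bases were coding.

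The stretch of 180 bases that all 6 exon peaks share, printed above, held 3 DRACH matches, of which 1 was GGACT, the form of the motif most often named for this mark. Central windows of the same length in 27957 peaks held at least 1 DRACH match in 97.8% and at least 1 GGACT in 25.5%. Their median was 4 DRACH matches, above the count of either MYOG stretch. The stop codon stretch of 180 bases held 2 DRACH matches, 1 of them in the printed coding part, and no GGACT. Only the gene's strand was searched.

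PAX7 peaks lay in the last exon, downstream of the stop codon in the 3′ untranslated region. The proximal site was listed at E40, E50, E60 and E70 with folds of 4.08, 8.33, 4.0 and 3.94, centred 1462 to 1522 bases past the stop codon. The E50 peak was at percentile 83.7 of its list and was the strongest peak of any member. The distal site was listed at E60 and E70 with folds of 4.90 and 5.61, at percentiles 65.5 and 70.4. The stages with a PAX7 peak, E40 to E70, were those in which its scaled level was above E33 and E95. As deposited, E33 overlapped with each of them, and E95 overlapped with E40 and E50. Of genes averaging 10 TPM or more at the stage, 52.1%, 40.6%, 49.5%, 50.7%, 54.3% and 53.9% had a peak in the lists of E33 to E95, in stage order. The proximal stretch of 91 bases held 3 DRACH matches and the distal stretch of 240 bases held 8, with no GGACT in either. Central windows of these lengths in 39498 and 17669 peaks held a median of 2 and 5 DRACH matches. At least 1 GGACT was held by 16.3% and 30.2% of them.

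MYOD1 peaks appeared in the last 3 lists. The site upstream of and across the start codon had folds of 3.51 at E60, 2.53 at E70 and 2.74 at E95. A second peak, 467 to 616 bases from the start codon in the first coding exon, was listed at E95 alone with a fold of 2.44. All 4 MYOD1 peaks were below their list's median fold, at percentiles 10.4 to 37.9. The RefSeq model of MYOD1 holds coding sequence only, so the bases upstream of the start codon cannot be placed in an exon of it. MYOD1 was at 83.5 to 120 TPM in the scaled means of the 3 stages without a peak and at 124 to 217 TPM in those with one. The libraries did not separate in this way. Scaled, they were at 101 to 149 TPM at E33, without a peak, and at 103 to 136 TPM at E60, with one. The deposited level at E33, 198 TPM, was the highest of all stages and E33 had no peak.

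**Figure D5:**
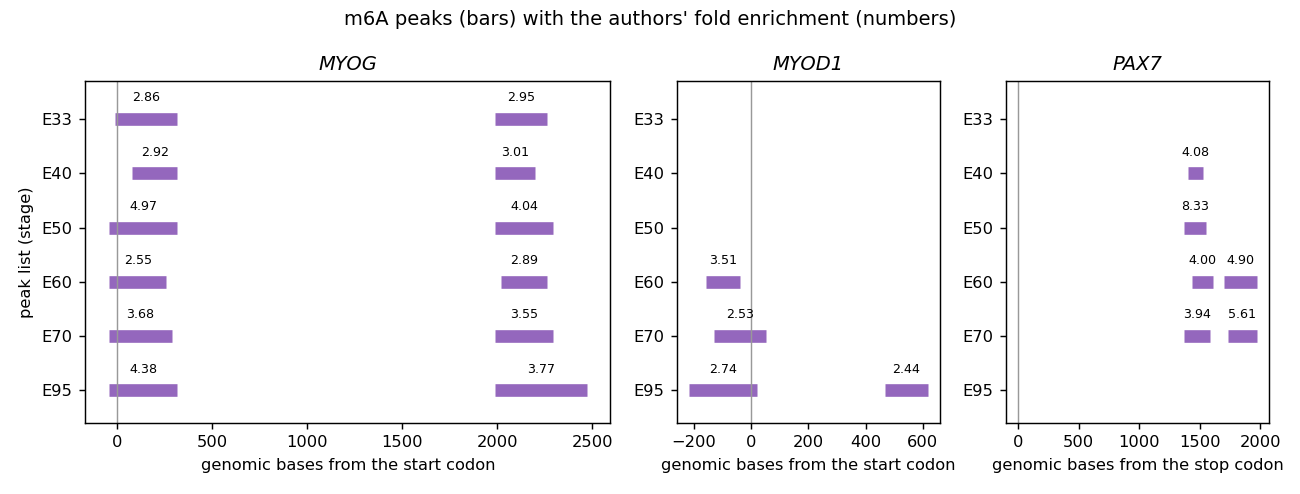
Peaks of MYOG, MYOD1 and PAX7 (bars) by stage list, at their distance in genomic bases from the start codon (MYOG, MYOD1) or stop codon (PAX7), with the authors' fold enrichment above each. MYOG has 2 peaks in every list, PAX7 has peaks from E40 to E70 and MYOD1 from E60 to E95.

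Coding sequences gave a further comparison of the members with and without peaks. MYF5 had 7 DRACH matches in 762 coding bases, 9.19 per kilobase, at percentile 4.74 of 19548 coding genes, whose median was 18.7 per kilobase. MYOD1 had 12.5 per kilobase at percentile 13.9, MYOG 14.8 at percentile 24.8 and PAX7 15.8 at percentile 30.6. MYF6 and PAX3, which had no peak, were above the median at 20.6 and 19.8 per kilobase. GGACT occurred once each in MYF5, MYF6, MYOG and PAX3, 3 times in PAX7 and 0 times in MYOD1, and 72.5% of coding sequences held at least 1. The peaks of PAX7 and the upstream MYOD1 peak of E60 lie outside these coding sequences. The upstream MYOD1 peaks of E70 and E95 held 52 and 23 coding bases. Most bases of the MYOG stop codon peaks also lie outside.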

How the data were processed

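Gene-level TPM of the 18 input libraries and 8 peak lists were used as deposited; the expression tables are TPM by the authors, per the file headers, and sum to the same total in every library. Reads were trimmed with Trimmomatic and aligned with HISAT2 to Sscrofa11.1, per the submitters' processing notes; the quantifier, strand setting, annotation release, peak caller and pooling for peaks are not given in the sources used here. Each peak's fold enrichment (a ratio) and p-value are the authors' values, deposited per peak. The immunoprecipitates were used only through the peak lists.

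TPM was divided by median-ratio size factors, taken to log2(TPM + 1) and fitted with limma 3.58.1 in R 4.3.3 (lmFit, eBayes with trend, 1 mean per stage, 12 residual degrees of freedom), for the 13334 genes averaging 1 TPM or more. P-values were two-sided and adjusted by Benjamini-Hochberg over all genes tested, with a threshold of 0.05. Ratios were tested by exact permutation with scipy 1.17.1. Peaks were assigned by gene ID, and sequence was read with pysam 0.24.0. The fit was also run on simulated data. No outcome of that run is reported, so it is no check on these libraries.

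Members, gene lists and markers were chosen with earlier results of these data known. Named genes were the 6 members, the 3 most correlated genes of each tested member, and the 2 largest rises and falls among called genes of each list. Not matched to an ID were TWIST1, SDC4, CHRND, CHRNG, RYR1 and LMOD3; CALCR was matched but not tested. A further listed gene is not reported here and was left out of its list's counts. From E33 to E95, of the tested markers 5 muscle ones rose and 1 fell, 3 of 3 neural fell, 2 Schwann rose and 1 fell, 3 fibroblast rose and 2 fell, 4 of 4 endothelial rose, 1 erythroid fell, 2 cartilage fell, 1 leukocyte rose and 2 adipocyte rose. Alternatives covered the scaling, pseudocount, filter, variance model, left-out libraries, a replicate block, and the threshold and matching of peaks.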

Additional observations from a re-analysis of the deposited data

How the results depend on the processing

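The count of members called across the 6 stages, 5 after scaling, was 1 in the deposited values. The 3 consecutive calls became 0 as deposited, 5 with quantile normalization, 7 when rescaled without the 2 most abundant genes and 1 when only the libraries of the stages compared were fitted. With each library left out in turn they ran from 1 to 4, with 1 without E70 replicate 3, E95 replicate 1 or E95 replicate 2, while the counts across stages (5) and for E95 against E33 (3) held. The 13 member and stage combinations with a peak became 4 for peaks above their list's median fold and 6 for a fold of at least 4. Leaving out a library, the E95 minus E33 log2 ratio ran from 3.38 to 3.94 for MYF6/MYF5, -1.07 to -0.81 for MYOG/MYOD1, -1.04 to -0.55 for PAX7/MYOD1, -2.42 to -1.98 for MYF5/MYOD1, 1.13 to 1.96 for MYF6/MYOD1 and 1.24 to 1.70 for PAX7/MYF5. Over 75 combinations of a tested member and a stage pair, 23 had the opposite sign as deposited, of which 17 were called on neither scale. The other 6 were PAX7 at E40 (-0.14), E50 (-0.21) and E70 (-0.093) against E33, MYOD1 at E95 against E33 (-0.43) and E60 (-0.094), and MYF6 at E50 against E33 (-0.11). Of the named list genes, MEF2D (-0.14) and MEF2C (-0.21) turned as deposited. Rescaled without the 2 most abundant genes, PAX7 at E95 against E33 (-0.53) and MYOG at E95 against E40 (-0.37) were called with the opposite sign. The cause was not tested.

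No strong pairing of the libraries by replicate number was seen. Deviations of same-numbered libraries correlated between -0.124 and 0.102 (median 0.017), and those of other numbers between -0.129 and 0.116 (median -0.003). A weak pairing could be missed with 3 libraries per stage. With the replicate block, 5 members were called across stages, 3 for E95 against E33 and 3 in consecutive pairs. TPM carries no read depth, so counting error could not be given for low genes such as PAX3.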
